A study of Homo sapiens with 12 samples.

Results

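The genes described here are 10 amino acid transporters of the plasma membrane, chosen by name from the 58395 genes in a table of read counts, and all 10 were found in it. They are SLC7A1 and SLC7A2, which carry cationic amino acids such as arginine and lysine; SLC3A2, the heavy chain of the CD98 complex, with the light chains SLC7A5 (LAT1) and SLC7A6 (y+LAT2); SLC43A1 (LAT3), a carrier of large neutral amino acids; SLC1A4 (ASCT1) and SLC1A5 (ASCT2), which exchange small neutral amino acids and glutamine; and SLC38A1 (SNAT1) and SLC38A2 (SNAT2), the sodium-coupled system A carriers. Transcripts were measured by RNA sequencing in 12 libraries, 4 from each of 3 human leukemia lines. K562, the parental line, was established from a patient with chronic myeloid leukemia. K/VP.5, a clonal K562 subline, resists the topoisomerase II poison etoposide. The line K/VP.5/edit-3 (edit-3 below) is 1 clone of K/VP.5 whose TOP2A gene, which encodes topoisomerase IIα, was edited with Cas9 and an oligonucleotide template at the splice site between exon 19 and intron 19. Per the labels, etoposide at 0.5 µM was given every other week, in a sentence that covers all 3 lines and leaves unclear whether K562 received it. Edit-3 therefore carries the resistance of K/VP.5 in its history as well as the edit, and as 1 clone its differences from K/VP.5 cannot be told apart from differences between clones.

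Amino acids cross the membrane through carriers with overlapping substrates. Sodium-coupled carriers such as SLC38A1 and SLC38A2 load small neutral amino acids, glutamine among them, and exchangers such as SLC1A5 and SLC7A5 trade amino acids across the membrane. SLC7A5 and SLC7A6 reach the surface as pairs with SLC3A2. When amino acids run short, the kinase GCN2 (EIF2AK4) raises translation of the transcription factor ATF4, which is known to induce several of these carriers, while lysosomal sensors hold the growth kinase complex mTORC1 inactive.

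The libraries held 25311993 to 37065946 counted reads, and 18286 genes passed the filter on low counts. Whether a line was sampled from separate cultures is not said in the labels, and the p-values then reflect only library-to-library spread, which may be technical. Groups were taken from the source names, with which a free-text label that gives parental cells throughout disagrees. TOP2A stood at 490 to 543 CPM (counts per 1000000 reads) in the K562 libraries, 339 to 370 in K/VP.5 and 383 to 437 in edit-3; a gene total does not show the edited splice site. All 10 K562 erythroleukemia markers were detected, with summed levels of 3900 to 5170 CPM in K562, 3350 to 4090 in K/VP.5 and 3260 to 4730 in edit-3. The 4 fibroblast markers summed to 6.42 to 11.8, 209 to 289 and 1690 to 2960 CPM in the same order. Of these COL1A2 averaged 6.82, 230 and 2490 CPM and COL1A1 1.47, 18.8 and 7.55, and both passed the test in all 3 comparisons, while COL3A1 and DCN held at most 1.17 and 0.0667 CPM in any library. The 4 T cell markers summed to 54.7 to 108, 18.5 to 37.2 and 23.4 to 76.7 CPM, the 4 epithelial markers to 157 to 175, 147 to 164 and 308 to 352 CPM with 2 of them at 0 reads, and the 4 B cell markers to at most 4.71 CPM. The part of these markers in the transporter differences was not tested. In such bulk RNA, fewer cells that express a gene and less of its RNA per cell cannot be told apart.

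The 3 lines differed in which transporters they expressed. SLC7A2 was detected at appreciable levels in K/VP.5, SLC38A1 was nearly lost in edit-3, and SLC3A2 was lower in both resistant-lineage lines than in K562. SLC7A1 was higher in both of them, and SLC1A4 was highest in edit-3. SLC7A5, SLC7A6, SLC43A1, SLC1A5 and SLC38A2 passed the test in no comparison.

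The number of transporters that changed was close to the share of all genes that changed. The transporters were chosen with earlier results of these data known, which limits this comparison. Between K/VP.5 and K562, 4 of the 10 differed at an adjusted p under 0.05, 2 higher and 2 lower, where 36.6% of all tested genes did (18.3% higher and 18.3% lower). Between edit-3 and K/VP.5, 3 of 10 differed, 1 higher and 2 lower, against 23.6% of all genes (12.9% higher, 10.6% lower). Between edit-3 and K562, 4 of 10 differed, 2 higher and 2 lower, against 39.2% of all genes (20.6% higher, 18.6% lower). The median log2 difference of the 10 was 0.09, 0.00 and 0.05 in these 3 comparisons, beside 0.003, 0.004 and 0.005 over all genes. The 4 and 4 library values did not overlap for 5, 3 and 4 of the 10, where 37.4%, 26% and 34% of all genes showed no overlap. Each pair of these comparisons shares the libraries of 1 line. All 10 passed the filter on low counts, SLC7A2 through its level in K/VP.5 alone.

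**Figure D1:**
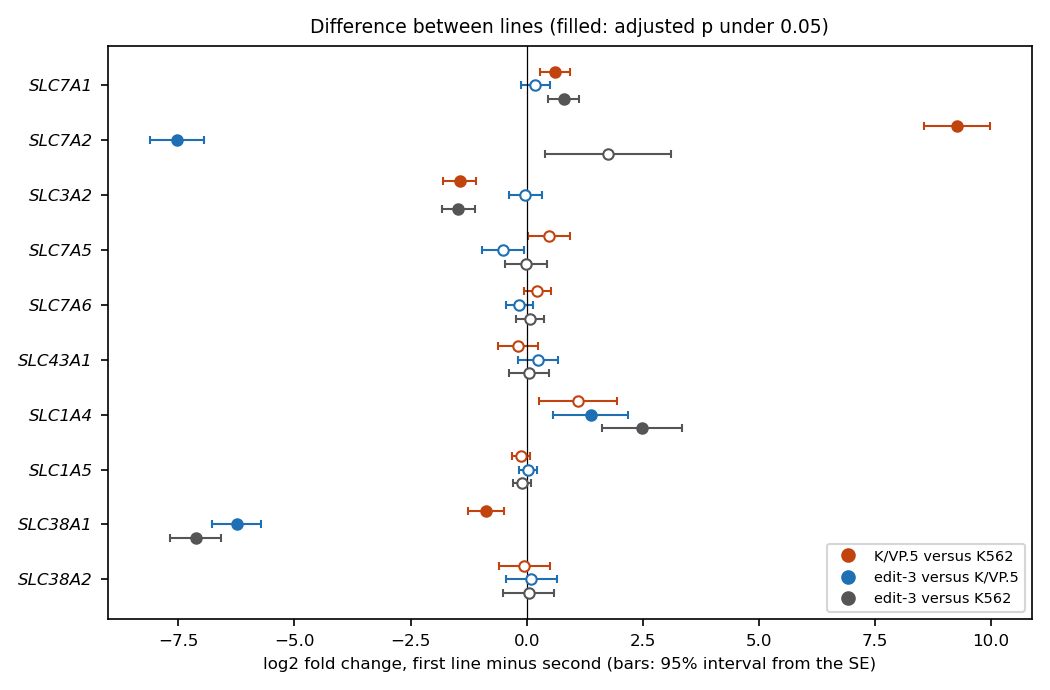
Log2 fold change of each transporter (x axis, first line minus second) in the 3 comparisons, with bars of the 95% interval from the SE in edgeR and filled points at an adjusted p under 0.05. SLC7A2 and SLC38A1 lie farthest from 0, at 9.27 for SLC7A2 in K/VP.5 versus K562 and -7.12 for SLC38A1 in edit-3 versus K562.

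Levels also differed between the transporters. Compared per kilobase of annotated exon, SLC3A2 (167 ± 6.92 CPM per kb, mean ± SD, n = 4) and SLC1A5 (163 ± 10.2) led in K562, followed by SLC7A5 (120 ± 11.1). SLC38A2 (45.4 ± 11.4) and SLC7A1 (26.2 ± 2.1) came next. SLC38A1 (12.2 ± 0.304), SLC43A1 (9.23 ± 1.61) and SLC7A6 (7.39 ± 1.61) were lower, and SLC1A4 (1.42 ± 0.681) was the lowest of those with more than a few reads. SLC3A2 and SLC1A5 overlapped within their SD, as did SLC43A1 and SLC7A6. In K/VP.5 the order at the top was SLC7A5 (168 ± 40.9), SLC1A5 (150 ± 20.6) and SLC3A2 (61.4 ± 15.2), and in edit-3 it was SLC1A5 (153 ± 15.9), SLC7A5 (119 ± 42.2) and SLC3A2 (60 ± 14.9). The first and second of these overlapped within their SD in both lines. Exons of SLC1A5 overlap AC008622.2 on the opposite strand over 23.4% of their length, and those of SLC7A5 overlap AC126696.2 over 5.71%. Those of SLC7A6 overlap SLC7A6OS over 44.4% and AC020978.9 over 11.1%, also on the opposite strand. Without a stated strand setting, reads there may be left out or counted for either gene, which limits this order.

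**Figure D2:**
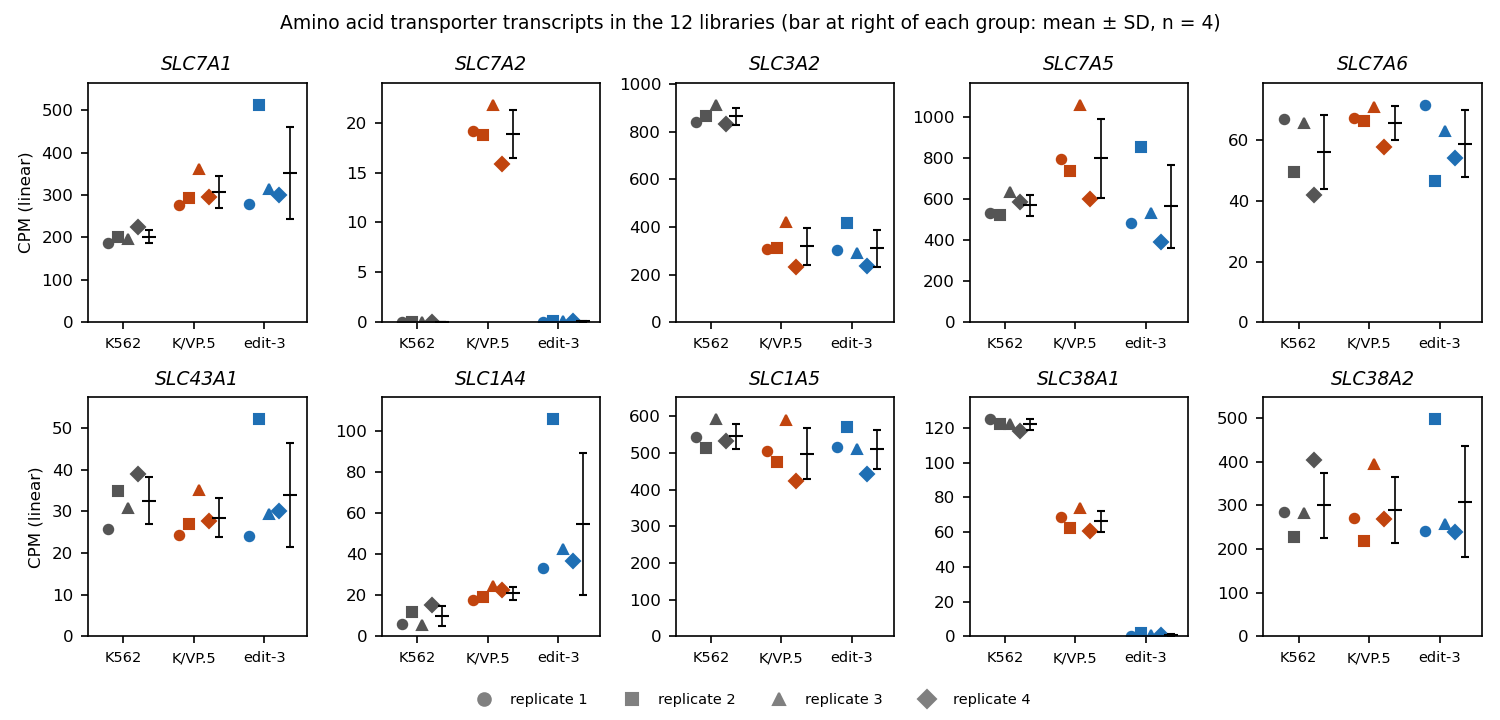
CPM of each transporter in the 12 libraries (linear axis from 0 in each panel), with 1 symbol per replicate number and the mean ± SD of the 4 libraries of a line as bars. SLC7A2 lies at 15.9 to 21.8 CPM in the K/VP.5 libraries and near 0 elsewhere, SLC38A1 is near 0 in edit-3, and edit-3 replicate 2 (blue square) is the highest edit-3 library for all genes shown but SLC7A6.

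SLC7A2, an arginine and lysine carrier that some cells induce, marked K/VP.5. Its gene lies on chromosome 8 at 17497088 to 17570573 (GRCh38, plus strand). The K/VP.5 libraries held 19.2, 18.8, 21.8 and 15.9 CPM, the K562 libraries 0.0354, 0.0655, 0 and 0, and the edit-3 libraries 0.0323, 0.167, 0.108 and 0.0904. The K/VP.5 values did not overlap with the others, and the other 2 lines were near the detection limit, with 3 reads in all of K562 and 12 in all of edit-3 against 2407 in K/VP.5. Scaled for depth, the K/VP.5 reads were 705 times those of K562 (95% exact interval 241 to 3420) and 190 times those of edit-3 (109 to 368), intervals that cover counting error only. The fitted log2 difference was 9.27 (SE 0.36, adjusted p = 6.2e-11, edgeR) from K562 to K/VP.5 and -7.53 (SE 0.30, adjusted p = 2e-10) from K/VP.5 to edit-3. Edit-3 and K562 differed by 1.75 (adjusted p = 0.058, interval 0.39 to 3.1), a fit to 12 and 3 reads. That difference passed the test without K562 replicate 2 (2.64, adjusted p = 0.026) or edit-3 replicate 1 (2.03, adjusted p = 0.028).

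The constitutive cationic carrier SLC7A1 (CAT1) was present in every line and lowest in K562. Its gene lies on chromosome 13 at 29509410 to 29595688 (minus strand). The libraries held 186, 200, 196 and 224 CPM in K562, 277, 294, 362 and 296 in K/VP.5, and 279, 513, 315 and 300 in edit-3. All K562 values were below all others, while K/VP.5 and edit-3 overlapped. SLC7A1 rose by 0.61 on the log2 scale in K/VP.5 (SE 0.16, adjusted p = 0.011) and by 0.80 in edit-3 (SE 0.17, adjusted p = 0.0016), both against K562. Edit-3 versus K/VP.5 gave 0.19 (adjusted p = 0.44, interval -0.13 to 0.52). Without edit-3 replicate 2, the edit-3 difference from K562 was 0.56 and still passed the test.

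SLC3A2, the chaperone-like heavy chain that brings several light chains to the membrane, had the highest mean of the 10 per kilobase in K562. SLC1A5 overlapped it there within the SD. The SLC3A2 gene lies on chromosome 11 at 62856102 to 62888875 (plus strand). K562 libraries held 841, 866, 913 and 834 CPM, K/VP.5 libraries 308, 310, 422 and 231, and edit-3 libraries 302, 418, 289 and 234. Every K562 library was above every library of the other lines, which overlapped each other. The mean was 2.72 times lower in K/VP.5 than in K562 (log2 difference -1.44, SE 0.18, adjusted p = 4.4e-05) and 2.78 times lower in edit-3 than in K562 (-1.47, SE 0.18, adjusted p = 3.2e-05). Between edit-3 and K/VP.5 the difference was -0.03 (adjusted p = 0.92, interval -0.39 to 0.32).

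SLC7A5, the light chain that exchanges glutamine for leucine and other large neutral amino acids, passed the test in no comparison. Its gene lies on chromosome 16 at 87830023 to 87869488 (minus strand). It held 533, 521, 636 and 587 CPM in K562, 794, 737, 1060 and 599 in K/VP.5, and 482, 852, 534 and 390 in edit-3, with overlap between all 3 lines. The log2 difference was 0.49 in K/VP.5 versus K562 (adjusted p = 0.12, interval 0.04 to 0.93), -0.50 in edit-3 versus K/VP.5 (adjusted p = 0.14, interval -0.94 to -0.06) and -0.01 in edit-3 versus K562 (adjusted p = 0.97, interval -0.45 to 0.43). The first passed when only those 2 lines were fitted (0.49, adjusted p = 0.031), and the second passed without edit-3 replicate 2 (-0.77, adjusted p = 0.0071). The pseudogene SLC7A5P1 had 3059 reads over the 12 libraries, 1.31% of the 232879 of SLC7A5, and SLC7A5P2 had 0 reads; reads shared between these near-identical copies could have been counted for either.

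The ratio of SLC7A5 to SLC3A2 within a library, which leaves depth aside, differed between all 3 lines. Per kilobase of exon it was 0.692, 0.657, 0.76 and 0.768 in the K562 libraries, 2.81, 2.59, 2.74 and 2.83 in K/VP.5, and 1.74, 2.22, 2.01 and 1.82 in edit-3. No 2 lines overlapped: the light chain transcript was below the heavy chain in all K562 libraries and above it in all others. The mean log2 ratio was higher by 1.93 in K/VP.5 than in K562 and by 1.44 in edit-3 than in K562, and differed by -0.50 between edit-3 and K/VP.5. Each gave an exact two-sided permutation p of 0.029 (n = 4 and 4), the smallest this design allows, and 0.029 after adjustment over the 9 ratio comparisons made. SLC3A2 pairs with further light chains, and transcripts do not measure the surface complex.

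**Figure D3:**
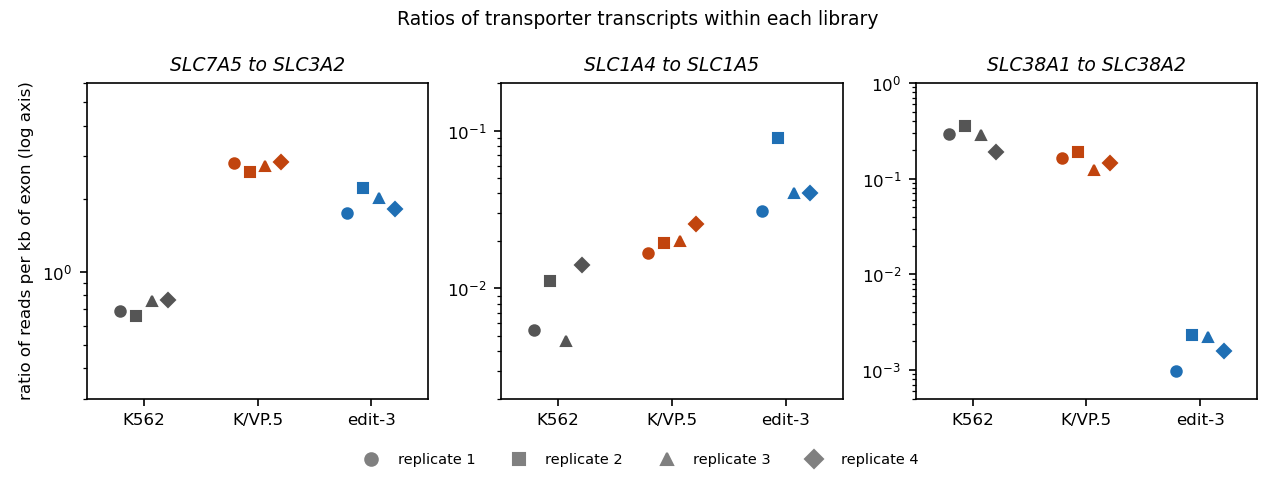
Ratio of reads per kb of exon for 3 pairs of transporters within each library (log axis), with 1 symbol per replicate number. In all 3 panels the 4 libraries of a line do not overlap with those of another, from 0.657 to 0.768 in K562 for SLC7A5 to SLC3A2 against 2.59 to 2.83 in K/VP.5.

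The promoter stretch of SLC7A5 is shown because it holds a motif that was searched for in all of the transporters. It comes from the RefSeq promoter table (GRCh38.p14), chr16:87869508-87869757 on the minus strand, 5′ to 3′, with the E-box CACGTG in capitals, 130 bases before the start.
SLC7A5: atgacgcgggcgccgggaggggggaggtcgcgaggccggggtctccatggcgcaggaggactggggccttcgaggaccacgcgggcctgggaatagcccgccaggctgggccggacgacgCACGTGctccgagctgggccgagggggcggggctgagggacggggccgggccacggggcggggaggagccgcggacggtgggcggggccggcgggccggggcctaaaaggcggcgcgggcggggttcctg
Promoter entries were found for 9 of the 10 transporters, all but SLC7A2, with 16 annotated starts among them, and the 250 bases before each start were searched on both strands. The E-box, a motif bound by MYC and related factors, was found in 3 of the 16 windows (1 each of SLC7A5, SLC43A1 and SLC1A5), and in 6.34% of 35116 windows of the same length over all genes. The SLC1A5 window with the E-box begins, at its 5′ end, inside an annotated exon of the gene. TGATGNAA, a form of the C/EBP-ATF response element that ATF4 binds, was found in 1 of the 16, before an alternative start of SLC1A5, and in 3.14% of all windows. The cAMP response element TGACGTCA was found in none of the 16 and in 1.65% of all windows. No match of one motif overlapped a match of another in these windows, and a match only describes the sequence.

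SLC7A6, the light chain that exchanges cationic for neutral amino acids, and SLC43A1, which takes up leucine and related amino acids without a heavy chain, passed the test in no comparison. SLC7A6 ranged from 42.1 to 67 CPM in K562, 58 to 71.1 in K/VP.5 and 46.5 to 71.8 in edit-3. SLC43A1 ranged from 25.7 to 39, 24.3 to 35.2 and 24.1 to 52.2 CPM in the same order. The lines overlapped for both genes. For SLC7A6 the log2 differences were 0.23 (interval -0.08 to 0.53) in K/VP.5 versus K562, -0.16 (-0.46 to 0.15) in edit-3 versus K/VP.5 and 0.07 (-0.23 to 0.37) in edit-3 versus K562. For SLC43A1 they were -0.19 (-0.62 to 0.23), 0.25 (-0.17 to 0.68) and 0.06 (-0.37 to 0.48). SLC7A6 shares 3371 bases, 44.4% of its exon length, with SLC7A6OS on the opposite strand, and without a stated strand setting the reads of these genes cannot be told apart.

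SLC1A4, an exchanger of serine, alanine, cysteine and threonine, was lowest in K562, intermediate in K/VP.5 and highest in edit-3. Its gene lies on chromosome 2 at 64988477 to 65023865 (plus strand). It held 6.19, 12, 5.77 and 15.5 CPM in K562, 17.7, 19.3, 24.5 and 22.7 in K/VP.5, and 33.4, 106, 42.7 and 36.8 in edit-3. The 3 lines did not overlap. SLC1A4 rose in edit-3 by 2.48 against K562 (SE 0.44, adjusted p = 0.00091), and by 1.38 against K/VP.5 (SE 0.41, adjusted p = 0.034). The difference between K/VP.5 and K562 was 1.1 (adjusted p = 0.069, interval 0.26 to 1.93). Both of the last 2 lie near the threshold: the rise over K/VP.5 was 0.84 (adjusted p = 0.073) without edit-3 replicate 2 and 1.28 to 1.46 (adjusted p = 0.062 to 0.097) without any 1 K/VP.5 library, while K/VP.5 versus K562 passed without K562 replicate 4 (1.39, adjusted p = 0.043), with the replicate number as a block (1.19, adjusted p = 0.045), in DESeq2 (1.09, adjusted p = 0.036) and with only those lines fitted (1.1, adjusted p = 0.025).

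SLC1A5, the main glutamine exchanger of many cancer cells, passed the test in no comparison. It held 512 to 592 CPM in K562, 423 to 588 in K/VP.5 and 441 to 571 in edit-3, with overlap between all lines. The log2 differences were -0.13 (interval -0.32 to 0.06), 0.03 (-0.16 to 0.23) and -0.10 (-0.29 to 0.10) for K/VP.5 versus K562, edit-3 versus K/VP.5 and edit-3 versus K562. These intervals are the narrowest of the 10 genes. The ratio of SLC1A4 to SLC1A5 per kilobase was 0.00885 ± 0.00451 (SD, n = 4) in K562, 0.0205 ± 0.00374 in K/VP.5 and 0.0501 ± 0.0265 in edit-3, with no overlap. The log2 ratio differed by 1.34, 1.18 and 2.53 in the comparisons as ordered above, each with an exact permutation p of 0.029. SLC1A5 remained by far the more abundant of this pair in every library.

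SLC38A1, a system A carrier that brings glutamine into the cell with sodium, was nearly absent from edit-3. Its gene lies on chromosome 12 at 46183063 to 46270017 (minus strand). The libraries held 125, 122, 122 and 118 CPM in K562, 68.5, 62.4, 73.7 and 60.4 in K/VP.5, and 0.356, 1.74, 0.865 and 0.573 in edit-3. The lines did not overlap, and edit-3 had 106 reads in all against 8469 in K/VP.5 and 13773 in K562. SLC38A1 fell by 0.88 on the log2 scale from K562 to K/VP.5 (SE 0.20, adjusted p = 0.0032) and fell by 6.24 from K/VP.5 to edit-3 (SE 0.27, adjusted p = 4e-09), where the mean was 75.1 times lower. The difference between edit-3 and K562 was -7.12 (SE 0.28, adjusted p = 5e-10). All 14 alternative fits kept these 3 calls.

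SLC38A2, the other system A carrier, which is adaptively induced when amino acids are scarce, passed the test in no comparison. Its gene is a neighbour of SLC38A1, at 46358189 to 46372867 on the same strand of chromosome 12. It held 284, 228, 282 and 405 CPM in K562, 272, 218, 396 and 270 in K/VP.5, and 242, 498, 257 and 239 in edit-3. The lines overlapped, and 1 library of each line stood above its other 3. The log2 differences were -0.05 (interval -0.59 to 0.49) in K/VP.5 versus K562, 0.10 (-0.44 to 0.64) in edit-3 versus K/VP.5 and 0.04 (-0.50 to 0.58) in edit-3 versus K562. The ratio of SLC38A1 to SLC38A2 per kilobase was 0.28 ± 0.0667 in K562, 0.156 ± 0.0281 in K/VP.5 and 0.00176 ± 0.000621 in edit-3 (SD, n = 4). Its log2 value differed by -0.83, -6.53 and -7.36 in the same order of comparisons, each with an exact permutation p of 0.029.

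The sequences before the starts of both genes are shown so that the lost and the retained transcript can be compared. They are from the same RefSeq table, minus strand, 5′ to 3′. The SLC38A1 stretches are chr12:46266517-46266766 (first start) and chr12:46267988-46268237 (second start). They are numbered by coordinate, so on this minus-strand gene the second lies upstream of the first. Both lie inside the annotated gene, which begins at its highest coordinate, 46270017. The SLC38A2 stretch is the part of its window before the annotated gene, chr12:46372868-46373023. No capitals are used because none of the 3 motifs occurs in them.
SLC38A1, first start: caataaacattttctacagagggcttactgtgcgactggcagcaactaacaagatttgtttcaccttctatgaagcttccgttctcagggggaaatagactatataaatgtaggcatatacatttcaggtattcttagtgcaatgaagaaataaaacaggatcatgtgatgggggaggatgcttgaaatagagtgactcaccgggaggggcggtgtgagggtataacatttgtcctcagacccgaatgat
SLC38A1, second start: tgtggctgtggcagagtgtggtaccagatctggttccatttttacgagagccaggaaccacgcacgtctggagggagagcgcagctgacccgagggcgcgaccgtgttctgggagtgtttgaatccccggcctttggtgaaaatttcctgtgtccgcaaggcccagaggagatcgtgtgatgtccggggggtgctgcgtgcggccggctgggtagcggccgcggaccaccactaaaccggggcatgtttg
SLC38A2: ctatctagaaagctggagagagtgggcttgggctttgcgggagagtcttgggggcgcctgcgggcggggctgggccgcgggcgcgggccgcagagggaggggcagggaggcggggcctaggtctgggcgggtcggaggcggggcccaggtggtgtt
The windows of 250 bases before these starts had a GC content of 42.4% and 61.6% for SLC38A1 and 73.6% for SLC38A2. Counts per gene do not show which SLC38A1 start was in use.

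Some genes beside the transporters also differed between lines. Their counts are to be read beside the share of all genes that passed. This was 36.6% in K/VP.5 versus K562, 23.6% in edit-3 versus K/VP.5 and 39.2% in edit-3 versus K562. For each transporter, the 20 nearest tested genes (10 on each side) were examined, with distances taken between the lowest coordinates of the genes. Around SLC7A1, 14 of 20 neighbours were higher in K/VP.5 than in K562 and 1 was lower, with a median log2 difference of 0.61, equal to that of SLC7A1 to 2 decimals. Against K562, edit-3 was higher for 15 of the 20 and lower for 0, with a median of 0.56. The 20 span 5.11 Mb. Copy number was not measured, and its part in the SLC7A1 difference was not tested.

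Around SLC7A5, 8 of 20 neighbours were higher and 3 lower in K/VP.5 than in K562 (median 0.38). In edit-3 versus K/VP.5, 1 was higher and 8 lower (median -0.35). Of all genes, 18.3% were higher and 18.3% lower in the first of these comparisons, and 12.9% and 10.6% in the second. Around SLC3A2, 4 were higher and 4 lower in K/VP.5 than in K562 (median 0.06). Around SLC7A2, 7 were higher and 1 lower in K/VP.5 than in K562, and 2 were higher and 6 lower in edit-3 than in K/VP.5. Among them MTUS1, a gene of a microtubule-associated protein 0.147 Mb away, chosen after its values were seen, differed by 5.99 (adjusted p = 2.5e-07) and -3.68 (adjusted p = 3.7e-06) in the same 2 comparisons.

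Around SLC38A1, 5 of 20 neighbours were lower and 0 higher in edit-3 than in K/VP.5, and the median was -0.09. Of all genes, 10.6% were lower and 12.9% higher in this comparison. The lower neighbours all lay on the side of SLC38A2 and beyond it. Of these, AMIGO2, PCED1B and PCED1B-AS1, singled out after their values were seen, lay 0.893 to 1.02 Mb away and differed by -2.42 (adjusted p = 0.00025), -4.40 (adjusted p = 2.5e-06) and -3.73 (adjusted p = 1.6e-05). PCED1B-AS1 is an antisense gene, whose reads cannot be separated from those of PCED1B where they overlap.

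**Figure D4:**
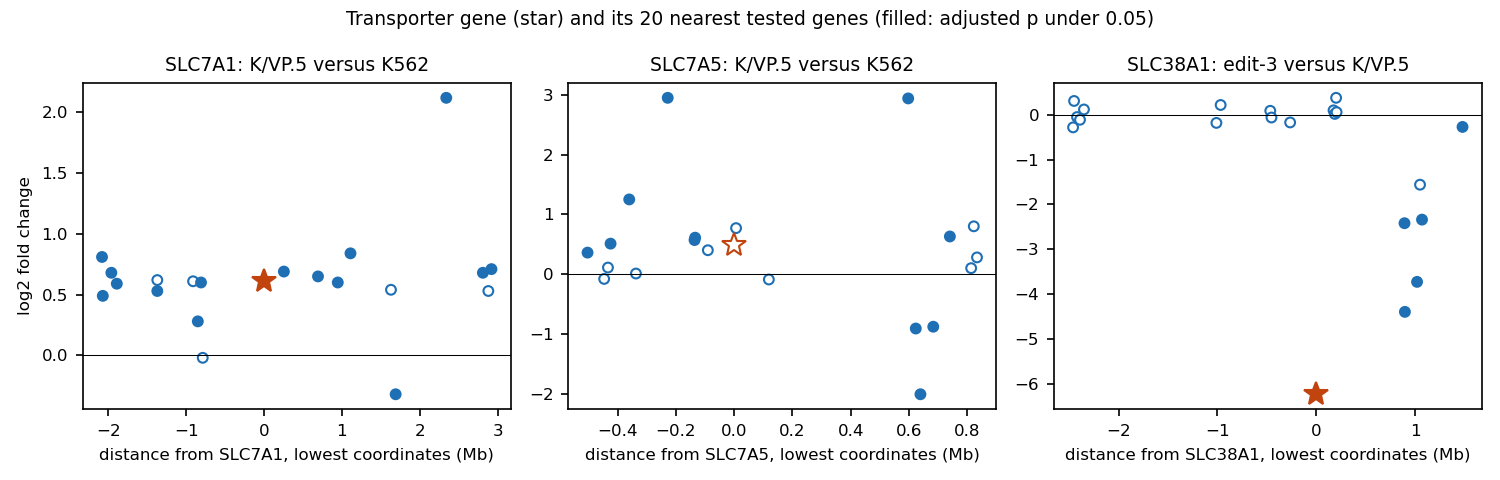
Log2 fold change of 3 transporters (stars) and of the 20 nearest tested genes by distance between lowest coordinates in Mb, with filled symbols at an adjusted p under 0.05. Around SLC7A1, 18 of 20 neighbours lie above 0 in K/VP.5 versus K562, while around SLC38A1 the lower genes in edit-3 versus K/VP.5 lie on 1 side, with SLC38A2 (0.10, at 0.175 Mb) between.

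The libraries of a line were not alike for these genes. Edit-3 replicate 2 was the highest of the edit-3 libraries for 9 of the 10 transporters, where it was highest for 33.5% of all genes. Its median log2 difference from the mean of the other 3 was 0.83 over the transporters and 0.03 over all genes, with 1.51 for SLC38A1, 1.5 for SLC1A4, 1.02 for SLC38A2 and -0.43 for SLC7A6. In the same library the K562 erythroleukemia markers had a median of -0.39, with 0 of 10 highest there. The 2 tested epithelial markers had a median of 0.9. Of these, EPCAM held 352, 345, 308 and 318 CPM in the edit-3 libraries. CDH1 held 0.0323, 0.501, 0.18 and 0.151 CPM there, near the detection limit. The part of all these markers in the transporter values was not tested. K/VP.5 replicate 3 was the highest of its line for 10 of 10 transporters, against 23.9% of all genes, with a median of 0.33 above the other libraries. In K562, replicate 4 was highest for 4 of 10, against 35.9% of all genes.

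The amino acid response genes, a list of 30 genes of the ATF4 pathway of which 28 were tested, were also high in edit-3 replicate 2 and K/VP.5 replicate 3. Edit-3 replicate 2 and K/VP.5 replicate 3 were each the highest of their line for 26 of the 28, with medians of 0.92 and 0.35 above the other libraries. K562 replicate 4 was the highest of its line for 17 of the 28, against 35.9% of all genes, with a median of 0.25 where the transporters were at 0.01. CHAC1, which degrades glutathione, held 6.63, 79.3, 16.9 and 15.2 CPM in edit-3 and 11.2, 4.92, 56.2 and 14.5 in K/VP.5. SESN2, a leucine sensor that ATF4 induces, held 49.4, 241, 80.2 and 62.4 CPM in edit-3, and SLC7A11, the cystine carrier that also pairs with SLC3A2, held 39.8, 173, 59.3 and 42.4. The second edit-3 library was the highest for each of these, by 2 times or more over the next. Several of the 10 transporters are known ATF4 targets; the part of this response in the spread of the transporters was not tested.

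**Figure D5:**
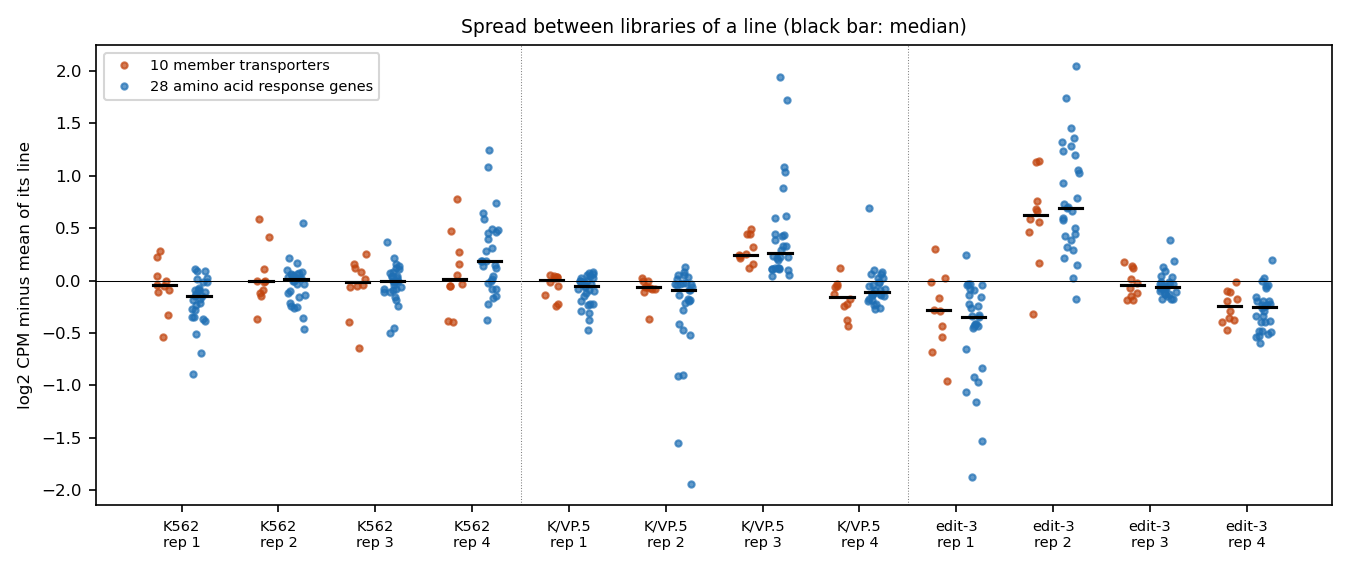
Log2 CPM of each of the 10 transporters (orange) and 28 amino acid response genes (blue) minus the mean of its line, by library, with the median as a black bar. Both sets lie high in edit-3 replicate 2 and K/VP.5 replicate 3, the highest of their line for 9 and 10 of the 10 transporters.

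Between lines, the amino acid response genes were counted beside the 36.6%, 23.6% and 39.2% of all genes that passed in the 3 comparisons. Of the 28 tested, 2 were higher and 2 lower in K/VP.5 than in K562 (median log2 difference 0.08), and 1 was higher and 1 lower in edit-3 than in K/VP.5 (median 0.15). ATF5, a transcription factor related to ATF4, rose from 20.7 ± 3.43 to 54.4 ± 5.05 CPM in K/VP.5 (1.39, adjusted p = 0.00022), and ATF4 itself rose from 300 ± 50.9 to 416 ± 47.8 (0.47, adjusted p = 0.0082). PSAT1, an enzyme of serine synthesis, fell by 1.69 (adjusted p = 0.0017). PHGDH, the first enzyme of that pathway, rose by 2.17 from K/VP.5 to edit-3 (38.6 ± 8.53 to 173 ± 117 CPM, adjusted p = 0.0083). The edit-3 libraries held 78.2, 340, 169 and 106 CPM of it, with replicate 2 the highest. All were above the K/VP.5 libraries, at 32.5, 33.6, 51 and 37.3 CPM. MARS, the methionyl-tRNA synthetase, fell by 0.36 in the same comparison (adjusted p = 0.03). MARS was the 1 lower gene there, and the call was lost without K/VP.5 replicate 2 or 3 or edit-3 replicate 1, 3 or 4, while 3 genes were lower without edit-3 replicate 2. In edit-3 versus K562, 7 were higher and 3 lower, a split that became 1 higher and 6 lower without edit-3 replicate 2. It was 1 higher and 3 lower without K562 replicate 1, and 2 higher and 3 lower without K562 replicate 2 or 3. With no filter 3 were higher and 4 lower, and with only these 2 lines fitted 3 were higher and 3 lower.

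Among 32 other amino acid transporters, 19 were tested, and the shares of all genes called are as for the response genes. In K/VP.5 versus K562, 6 were higher and 2 lower (median 0.14), in edit-3 versus K/VP.5 3 and 3 (median -0.03), and in edit-3 versus K562 4 and 2 (median 0.11). SLC7A8 (LAT2), a light chain of SLC3A2, held 9.31 ± 1.45 CPM in K562, 28.8 ± 3.64 in K/VP.5 and 60.1 ± 13.4 in edit-3, and rose at both steps, by 1.63 (adjusted p = 9.4e-07) and 1.06 (adjusted p = 8.2e-05). SLC16A10, an aromatic amino acid carrier, rose from 1.91 ± 0.27 to 3.96 ± 0.342 CPM between K/VP.5 and edit-3 (1.05, adjusted p = 0.00014). SLC6A19, a neutral amino acid carrier of gut and kidney, went the other way, from 53.1 ± 23.1 CPM in K562 to 6.15 ± 1.97 in K/VP.5 (-3.11, adjusted p = 0.00013) and 0.903 ± 0.574 in edit-3 (-5.86 against K562, adjusted p = 3.4e-06). SLC1A3, a glutamate and aspartate carrier, had 0 reads in K562 and 214 in K/VP.5, at least 62.7-fold higher when 3 reads over the 4 K562 libraries are taken as the floor. It fell by 3.91 from K/VP.5 to edit-3 (adjusted p = 3.7e-05). SLC1A3 passed the filter on low counts through its level in K/VP.5 alone, as SLC7A2 did. Their shared order of the 3 lines, at a lower level for SLC1A3, is therefore a description only.

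Amino acid sensing for mTORC1 was covered by 31 tested genes, to be read beside the same 36.6%, 23.6% and 39.2% of all genes. Of them, 4 were higher and 10 lower in K/VP.5 than in K562 (median -0.02), 4 higher and 6 lower in edit-3 than in K/VP.5 (median -0.01), and 5 higher and 11 lower in edit-3 than in K562 (median -0.08). LAMTOR1, which anchors the Ragulator complex to the lysosome, fell by 0.88 in K/VP.5 (54.1 ± 3.82 to 29.3 ± 1.18 CPM, adjusted p = 1.8e-07), and MLST8, a subunit of mTORC1 itself, fell by 0.72 (adjusted p = 8.2e-06). NPRL3, a subunit of the inhibitory GATOR1 complex, fell by 0.90 in K/VP.5 (adjusted p = 2.2e-07) and rose by 0.83 in edit-3 against K/VP.5 (adjusted p = 1.1e-06). CASTOR2, a relative of the arginine sensor CASTOR1, fell by 0.81 in edit-3 against K/VP.5 (adjusted p = 8e-05), and C12orf66 (KICS2), a subunit of the KICSTOR complex, fell by 0.97 (adjusted p = 3e-05). RRAGD, a Rag GTPase, rose by 3.19 in edit-3 against K562 (0.355 ± 0.345 to 3.15 ± 0.98 CPM, adjusted p = 7.4e-05). It was also higher in K/VP.5 than in K562, at 5.37 ± 1.07 CPM (3.96, adjusted p = 1e-05). Edit-3 versus K/VP.5 gave -0.77 for RRAGD (adjusted p = 0.14).

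Enzymes that use arginine, glutamine and branched-chain amino acids gave 22 tested genes, again beside 36.6%, 23.6% and 39.2% of all genes. There were 1 higher and 6 lower in K/VP.5 than in K562 (median -0.15), 1 and 3 in edit-3 versus K/VP.5 (median 0.03), and 2 and 8 in edit-3 versus K562 (median -0.06). GLUD1, the mitochondrial glutamate dehydrogenase, fell by 0.77 in K/VP.5 (218 ± 7.95 to 127 ± 4.06 CPM, adjusted p = 1.5e-07). NOS3, a nitric oxide synthase that consumes arginine, fell by 0.82 (adjusted p = 6e-06), and ASL, which makes arginine in the urea cycle, fell by 0.58 (adjusted p = 5.5e-05). GLUL, the glutamine synthetase, rose from 1370 ± 128 CPM in K/VP.5 to 2720 ± 745 in edit-3 (0.99, adjusted p = 0.0038). BCKDHB, a subunit of the branched-chain keto acid dehydrogenase, fell by 0.51 in the same comparison (adjusted p = 0.0059).

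The genes most like each transporter over the 12 libraries, by Pearson correlation of log2 CPM, largely repeat the order of the 3 lines. For SLC7A2 they were TFAP2B (r = 0.996) and LIN28A (0.995), which averaged 20.9 and 166 CPM in K/VP.5 and at most 0.434 CPM in either other line. For SLC38A1 they were SMARCA1 (0.996) and CA2 (0.993), at 4.32 and 2.75 CPM in edit-3 against 23.2 and 24.8 in K/VP.5. For SLC3A2 AKR1C3 is given (0.982), for SLC1A4 CCNDBP1 (0.987) and JDP2 (0.975), for SLC7A1 SNX24 (0.976) and RAB27A (0.959), and for SLC7A5 XBP1 (0.939) and KIF5A (0.912). The highest values for SLC7A6, SLC43A1, SLC38A2 and SLC1A5 were 0.974 (WDR62), 0.945 (GTPBP2), 0.935 (ZKSCAN8) and 0.848 (AC004967.1). Libraries of 1 line share their cells, so these values describe the pattern only.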

How the data were processed

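RNA of 12 libraries, 4 for each line, was sequenced. The authors deposited raw read counts per gene (58395 Ensembl IDs); the submitters' processing notes name the GRCh38 build with HISAT2 2.1.0 (an aligner), Subread 1.5.1 and featureCounts (a read counter). Not given in the sources used here are the annotation release, the strand setting and the handling of multiply mapped reads. Groups came from source names and replicate numbers from titles.

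Genes were filtered with filterByExpr (18286 kept, 99.89% of reads), scaled by TMM and tested with edgeR 4.0.16 in R 4.3.3 (robust quasi-likelihood test, 1 coefficient per line, all 12 libraries), with Benjamini-Hochberg adjustment over all tested genes and a threshold of 0.05. The test was checked on simulated counts. All adjusted p-values are from this test unless DESeq2 (1.42.0), an alternative, is named. SE is the log2 fold change divided by the root of F, and the intervals given are 95% intervals from the SE. Log2 ratios were compared by exact permutation (scipy 1.17.1). Positions and exon lengths are from GENCODE 29, which held 58275 of the IDs. The transporters and gene lists were chosen with earlier results of these data known. Named genes are all 10 transporters, the SLC7A5 pseudogenes, TOP2A, up to 3 genes with the smallest adjusted p per list and comparison (at least 1 CPM in 1 line), and 2 most correlated genes per transporter, of which 1 is not reported here; others are said to be chosen later. CHAC1, SESN2 and SLC7A11 were chosen after their values were seen.

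Same-numbered K/VP.5 and K562 libraries deviated together (r = 0.46, 0.24, 0.22 and 0.68), and replicates 1, 2 and 4 matched their own number best in both directions. Edit-3 replicates 1 and 4 did so too, with K/VP.5 (r = 0.53 and 0.47) and with K562 (0.64 and 0.44). Edit-3 replicates 2 and 3 did not (r from -0.14 to 0.07). Any pairing was read from the data alone, and the main tests treated the libraries as unpaired. No 2 libraries of a line agreed within sampling noise (chi-square per degree of freedom 6.68 to 67.4). Depth was 25311993 to 37065946 reads per library. Alternatives were DESeq2, its size factors, no filter, a stricter filter, 2 lines only, the replicate block and each library left out.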

Additional observations from a re-analysis of the deposited data

Results flagged for a closer look

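In edit-3 replicate 2, 3 transporters stood far from the other libraries of the line by Dixon's criterion (the gap to the nearest library over the range of the 4, at the 95% critical value). SLC1A4 was at 106 CPM with the nearest library at 42.7, SLC38A2 at 498 CPM with the nearest at 257, and SLC7A1 at 513 CPM with the nearest at 315. The criterion was applied to 30 groups, 10 genes in 3 lines, and chance marks about 1 in 20 groups; all 3 marks fell in the same library.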

How the results depend on the processing

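The 11 calls on single transporters kept their direction in every alternative fit, and all but SLC1A4 in edit-3 versus K/VP.5 kept their side of the threshold. That one was 1.35 (adjusted p = 0.087) with no filter and 0.84 to 1.55 with 1 library left out. With 1 library left out, the log2 difference changed sign only among values that passed no test: for edit-3 versus K/VP.5, SLC1A5 ranged from -0.06 to 0.12, SLC38A2 from -0.23 to 0.29, SLC3A2 from -0.21 to 0.13, SLC43A1 from -0.03 to 0.38 and SLC7A1 from -0.04 to 0.29; for edit-3 versus K562, SLC38A2 from -0.28 to 0.22, SLC43A1 from -0.23 to 0.19, SLC7A5 from -0.28 to 0.11 and SLC7A6 from -0.05 to 0.17; for K/VP.5 versus K562, SLC38A2 from -0.24 to 0.12. The cause was not tested.

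With the replicate number as a block, 7681, 5494 and 8121 genes passed in K/VP.5 versus K562, edit-3 versus K/VP.5 and edit-3 versus K562, beside 6688, 4309 and 7166 without it; among the transporters it changed the call of SLC1A4 in K/VP.5 versus K562 and no other. With 1 library left out, the counts ranged from 5839 to 6561, 3388 to 4765 and 6478 to 7553. The exact test of ratios cannot go below 0.057 with 3 against 4 libraries or 0.125 with signs in 4 pairs, so no ratio could pass there; the 9 ratios kept their sign in those alternatives. SLC7A2 in edit-3 versus K562 gave no value with only these lines fitted, since it did not pass the filter. Depth limits SLC7A2 in K562 and edit-3, with 3 and 12 reads.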
